A study of Arabidopsis thaliana with 23 samples.

Results

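Nuclear genes for the 2 photosystems, their light-harvesting antennae, the carriers cytochrome b6f Rieske protein and plastocyanin, and RuBisCO with its activase were followed across RNA-seq of Arabidopsis thaliana. The 50 genes were chosen by name and identifier, with no use of their measured values in the rule, as rows found in both count tables, which held 32833 genes for axillary tissue and 32224 for seedlings. They comprise 9 genes of the major light-harvesting complex of photosystem II (LHCII; LHCB1 to LHCB3), 5 of the minor LHCII (LHCB4 to LHCB6), 6 of the photosystem I antenna (LHCI; LHCA1 to LHCA6), 12 of photosystem I (PSA), 10 of photosystem II (PSB), 3 for electron carriers (PETC, PETE1, PETE2) and 5 for RuBisCO small subunits and RuBisCO activase (RBCS, RCA). All 50 matched a locus tag in the RefSeq gene table.

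The antenna proteins bind chlorophyll and pass absorbed light energy to the photosystem cores, whose reaction-centre subunits are encoded in the plastid while the genes followed here lie in the nucleus. Electrons pass from photosystem II through cytochrome b6f and plastocyanin to photosystem I, and RuBisCO uses the resulting chemical energy indirectly in fixing carbon dioxide. In leaves these transcripts are among the most abundant of all nuclear messages, and they are known to respond together to light, sugar and the state of the chloroplast.

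The study concerns BRC1, a TCP transcription factor that restrains outgrowth of axillary buds, and all plants had the Col-0 background and were kept in 16 h of light and 8 h of dark. Whole wild-type seedlings were raised for 7 days on MS agar with 1% sucrose, either with the solvent DMSO or with 2.5 µM rac-GR24, a synthetic strigolactone analogue. Axillary tissue, meaning buds together with the leaf axil beneath them, was taken from intact wild-type plants (intact WT), from intact plants of the mutant allele brc1-2, and from wild-type plants whose main shoot was cut off when the inflorescence was about 1 cm long (decapitated WT). Each of the 5 groups had 3 libraries, named here by group and number. A pair of brc1-2 columns bears the same number, so they are written 2a and 2b. The labels give neither plant age nor the time from cutting to harvest nor the hour of harvest for axillary tissue, and they do not tie libraries to separate plants, so each p-value describes the spread among these samples, which may be technical. By their labels, seedlings and axils belong to separate batches, and each table was fitted alone.

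Libraries held between 31209344 and 44442493 counts in seedlings and between 47462342 and 61228766 in axillary tissue. BRC1 itself had 373 to 423 counts in intact WT libraries and 2 to 4 in brc1-2, so the mutant libraries matched their label. It had 77 to 99 counts in decapitated WT, fewer than in intact WT. In seedlings it had 0 to 2 counts on DMSO and 94 to 279 on rac-GR24. The 50 genes took 10.3% to 10.4% of all counts in intact WT, 12.3% to 12.4% in brc1-2 and 7.89% to 8.21% in decapitated WT. In seedlings they took 12.01% to 13.2% on DMSO and 10.4% to 11.1% on rac-GR24. No treated or mutant range overlapped that of its own control. In bulk tissue, fewer cells of a kind and less RNA per cell cannot be told apart.

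Of the 50 genes, 49 passed the filter on low counts in both tables, and the exception, LHCB1.5 (AT2G34420, a major LHCII gene), was listed at 0 in all 15 libraries. LHCB1.5 lies on TAIR10 chromosome 2 from 14522524 to 14523568 on the minus strand, and 100% of its 1045 exon bases are shared with genes annotated on the plus strand, the long non-coding RNA gene AT2G08665 and the last exon of RWA3 (AT2G34410), an acetylation gene of the cell wall. Across the axillary table, 1117 genes had all exon bases shared in this way or with a gene on their own strand, and 97.6% of them were at 0 in all libraries, against 13.8% of the 23028 genes that shared none. Where the other strand alone covered a gene, 99.1% of 935 genes were at 0. The 0 for LHCB1.5 is therefore no measure of its transcript, and its level was not measured here.

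**Figure D1:**
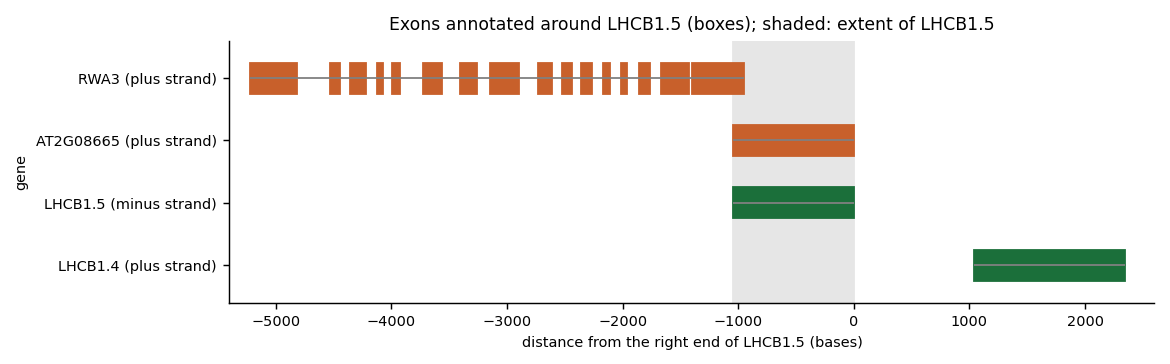
Map of annotated exons (boxes) around LHCB1.5, with distance in bases from its right end on the horizontal axis and 1 gene per line; the shaded span is LHCB1.5. The plus-strand gene AT2G08665 covers all 1045 exon bases of LHCB1.5, and LHCB1.4 lies 1038 bases beyond.

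Partial sharing touched other members. PSAG (AT1G55670; 61.4% of exon bases), PSAH1 (AT3G16140; 53.3%), LHCB2.3 (AT3G27690; 40.6%), PSAE1 (AT4G28750; 34.1%), PSAH2 (AT1G52230; 24.8%), LHCB6 (AT1G15820; 20.4%) and LHCB3 (AT5G54270; 14.98%) had the highest shares among the 49, and their levels per kilobase may be understated. Changes between groups use the same exon bases in each library. For PSAG, a photosystem I subunit that helps hold the antenna, the mean level in intact WT was 639 RPKM and would be 1655 per kilobase of unshared exon, so levels between genes are compared below with that limit.

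Levels are given as RPKM, that is counts divided by exon length in kilobases and by library size after TMM scaling, which allows for differences in library composition. In intact WT axils the most abundant member was LHCB1.3 (AT1G29930), with 12109, 11814 and 12069 RPKM. RBCS1A (AT1G67090) followed with 6225, 6341 and 6166 RPKM. These genes, for a major LHCII protein and a RuBisCO small subunit, held the first and the next rank by mean RPKM in each of the 5 groups, and their libraries did not overlap in any of them. The places below them in intact WT were taken by LHCB1.2 (AT1G29910; 3796, 3698 and 3751 RPKM), LHCA4 (AT3G47470; 3788, 3746 and 3594 RPKM) and LHCB1.1 (AT1G29920; 3721, 3649.5 and 3692 RPKM). The ranges of these 3 genes overlapped, so their order was not separated beyond the spread of the libraries.

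At the low end stood LHCB4.3 (AT2G40100), an isoform of the minor antenna protein LHCB4, with 22.3, 25.6 and 22 RPKM in intact WT. LHCA6 (AT1G19150; 52.3, 57.5 and 55.4 RPKM) and LHCA5 (AT1G45474; 92.6, 98.2 and 95.8 RPKM), which connect photosystem I to the NDH complex of cyclic electron flow, were the next lowest. The top member of photosystem I was PSAO (AT1G08380; 1941, 1974 and 1963 RPKM), of photosystem II PSBR (AT1G79040; 2635, 2758 and 2658 RPKM), of the minor antenna LHCB5 (AT4G10340; 3059, 3017 and 2915 RPKM) and of the carriers the plastocyanin gene PETE2 (AT1G20340; 1432, 1454 and 1425 RPKM).

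**Figure D2:**
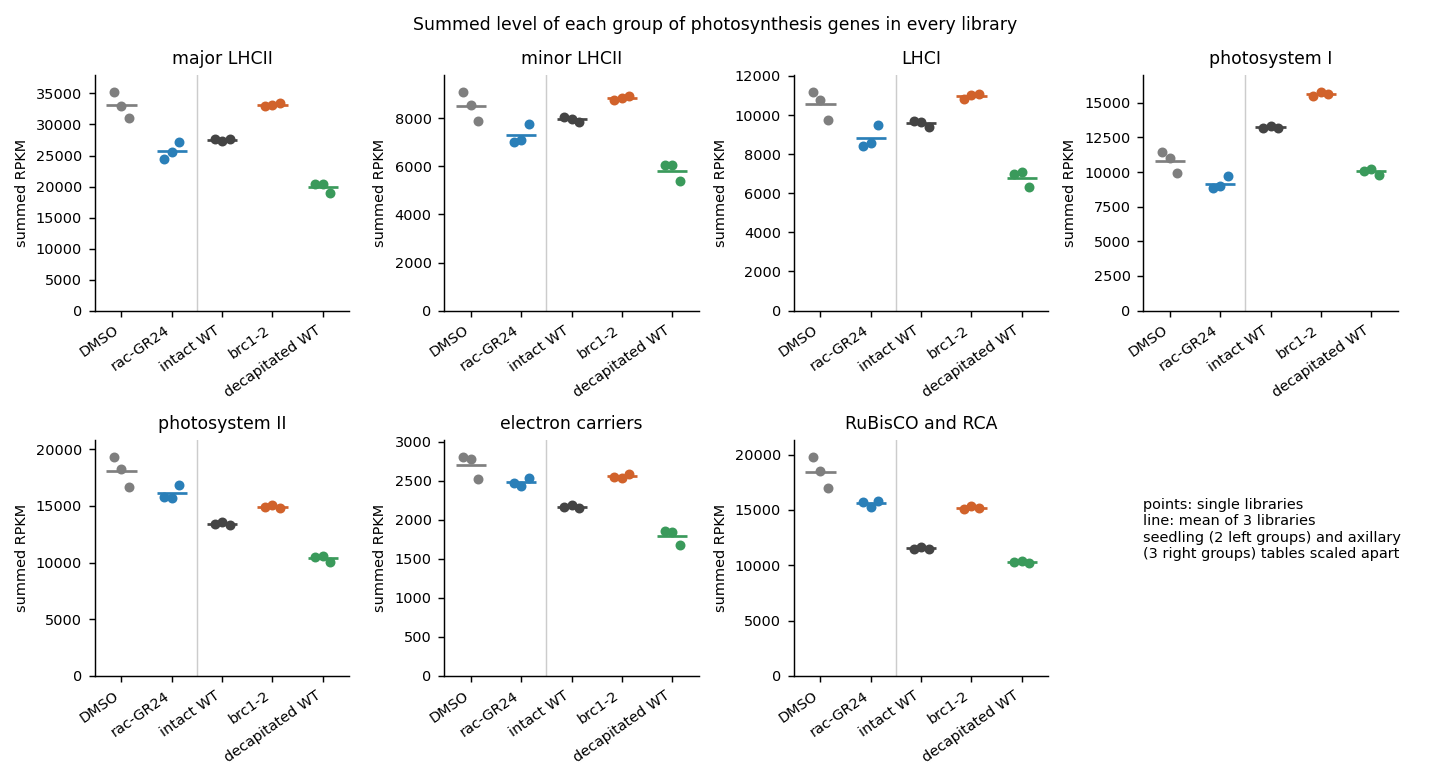
Summed RPKM of each gene group (vertical axes, from 0) in every library (points) of the 5 groups, with the mean of 3 libraries as a line; the grey rule parts the separately scaled seedling and axillary tables. All 7 groups of genes sit highest in brc1-2 and lowest in decapitated WT among the axillary libraries.

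The first comparison asks how rac-GR24 affects these transcripts in seedlings. Of the 49 genes tested, 25 were lower on rac-GR24, 1 was higher and 23 did not pass edgeR's quasi-likelihood test at an adjusted p under 0.05 (Benjamini-Hochberg, over all genes tested). Among all 21063 genes tested in seedlings 11.7% were lower and 12.4% higher, 24% together, so the share of members that fell, 51%, stood above the background and the share that rose, 2.04%, below it. The median log2 change of the members was -0.22, beside 0.00 for all genes. No gene that fell did so by a factor of 1.5 or more.

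The major antenna showed the deepest falls. LHCB1.2, LHCB1.3 and LHCB1.4 (AT2G34430), with LHCB1.1, LHCB2.3 and LHCB3, fell, and 2 of the 8 tested did not pass, with a median log2 change of -0.36. LHCB2.3 had 377, 381 and 334 RPKM on DMSO and 226, 239.99 and 273 on rac-GR24, a log2 change of -0.56 ± 0.080 (edgeR adjusted p = 0.00013). LHCB1.3, the most abundant, had 16166, 14666 and 14268 RPKM on DMSO and 10145, 10975 and 11443 on rac-GR24, a log2 change of -0.47 ± 0.075 (edgeR adjusted p = 0.00036). In both genes each treated library lay below each control library.

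LHCB2.1 (AT2G05100) ran differently within the same antenna. Its libraries had 2797, 2607 and 2297 RPKM on DMSO and 2318, 2264 and 2469 on rac-GR24, so that the groups overlapped. The log2 change of -0.13 ± 0.080 did not pass (edgeR adjusted p = 0.29). Its neighbour LHCB2.2 (AT2G05070) had 2766, 2648 and 2330.1 RPKM on DMSO and 2166, 2158 and 2321 on rac-GR24. It stood just outside the threshold (edgeR adjusted p = 0.051).

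The gene that rose was LHCB4.3, a minor antenna isoform expressed at a low level. It had 28.5, 22.9 and 23.7 RPKM on DMSO and 56.6, 54.5 and 53.7 RPKM on rac-GR24, a log2 change of 1.134 ± 0.078, or 2.19-fold (edgeR adjusted p = 1.7e-07). All treated libraries stood above all controls. LHCB4.3 lies on TAIR10 chromosome 2 from 16745628 to 16747424 on the plus strand. The other LHCB4 genes did not rise: LHCB4.1 (AT5G01530) fell (-0.26 ± 0.071; edgeR adjusted p = 0.017) and LHCB4.2 (AT3G08940) had a log2 change of -0.16 ± 0.074 that did not pass. LHCB5, whose protein also links the trimers to the core, fell (-0.26 ± 0.080), and LHCB6 did not pass (-0.19 ± 0.075).

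In the photosystem I antenna 3 of 6 genes fell, with a median of -0.23. LHCA1 (AT3G54890), a partner of LHCA4 at the edge of the complex, had 2784, 2692 and 2414 RPKM on DMSO and 1994, 2062 and 2270.2 on rac-GR24 (-0.32 ± 0.078; edgeR adjusted p = 0.0079). LHCA2 (AT3G61470) and LHCA3 (AT1G61520) also fell. LHCA4, the most abundant of the 6, had overlapping groups, with 4005, 3868 and 3402 RPKM on DMSO and 3110.4, 3097 and 3475 on rac-GR24 (edgeR adjusted p = 0.061).

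Photosystem I genes fell in 7 of 12 cases (median -0.22), and PSAE2 (AT2G20260), for a subunit at the ferredoxin side, fell most. PSAE2 had 565, 518 and 504 RPKM on DMSO and 355, 371 and 385 on rac-GR24, a log2 change of -0.51 ± 0.066 (edgeR adjusted p = 5.2e-05), whereas its copy PSAE1 had 390.2, 361 and 352 RPKM on DMSO and 299, 311 and 332 RPKM with the compound (-0.23 ± 0.066). Groups did not overlap for either gene. Photosystem II genes fell in 2 of 10 cases (median -0.17), namely PSBQ1 (AT4G21280), an oxygen-evolving complex protein, and PSBX (AT2G06520), a small core subunit. PSBX had 1779, 1717 and 1639.7 RPKM on DMSO and 1433, 1474 and 1504 on rac-GR24 (-0.22 ± 0.066; edgeR adjusted p = 0.026). PSBO2 (AT3G50820; -0.03 ± 0.068) and PSBS (AT1G44575), the sensor of photoprotective quenching (-0.04 ± 0.073), had overlapping groups.

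Downstream, the plastocyanin gene PETE1 (AT1G76100) had 100.4, 105 and 95.2 RPKM on DMSO and 74.1, 74.9 and 80.9 on rac-GR24 (-0.39 ± 0.062; edgeR adjusted p = 0.00033). PETC (AT4G03280), the Rieske protein gene, also fell (-0.22 ± 0.065), and the more abundant plastocyanin gene PETE2 did not pass (-0.08 ± 0.070). RBCS3B (AT5G38410) had 3569, 3526 and 3268 RPKM on DMSO and 2618, 2439 and 2497 on rac-GR24 (-0.46 ± 0.069; edgeR adjusted p = 0.00023). RBCS1A and RBCS2B (AT5G38420) fell too, while RBCS1B (AT5G38430; 0.03 ± 0.084) and RCA (AT2G39730), which restores RuBisCO activity (-0.04 ± 0.083), had overlapping groups and did not pass.

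The seedling libraries differed among themselves in all these genes at once. DMSO 3 was the lowest control library for 48 of 49 genes and DMSO 1 the highest for 44, while rac-GR24 3 was the highest treated library for 44. The median member stood at 0.08, 0.02 and -0.11 on the log2 scale against the DMSO mean in DMSO 1, 2 and 3, and at -0.25, -0.24 and -0.14 in rac-GR24 1, 2 and 3. The number of genes called lower moved with single libraries. It was 41 without DMSO 3, 13 without DMSO 1, 14 without DMSO 2, 9 without rac-GR24 1 and 13 without rac-GR24 2, against 25 with all. Of the 26 calls, 10 held with each library left out in turn: LHCB4.3 higher, and LHCB1.2, LHCB1.3, LHCB1.4, LHCB2.3, PSAE2, PSAN (AT5G64040), PETE1, RBCS2B and RBCS3B lower.

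**Figure D3:**
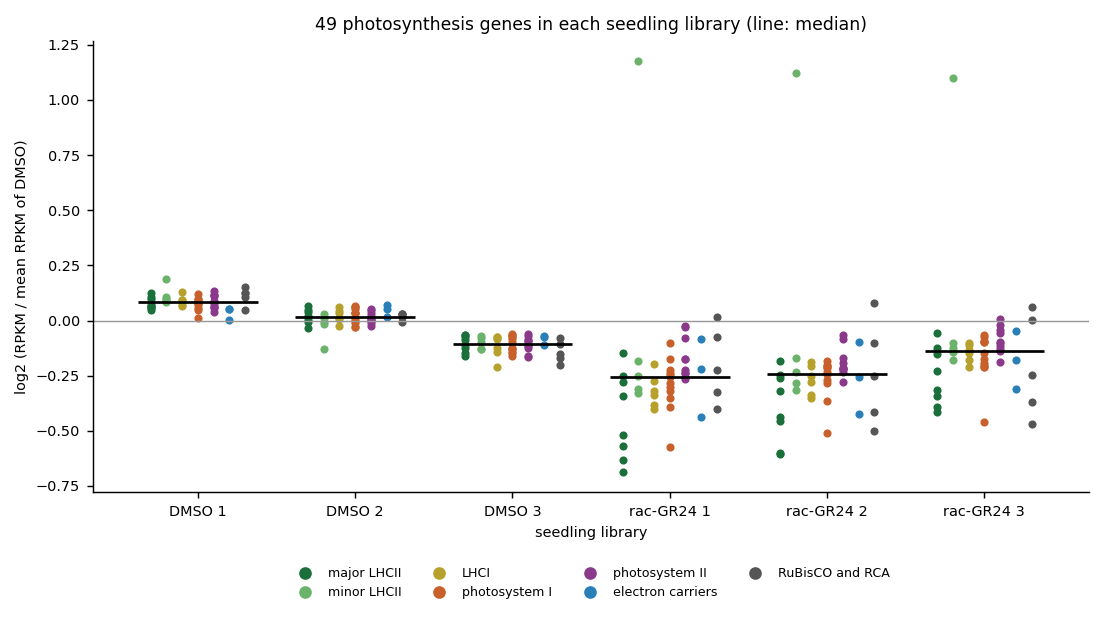
Each point is 1 of 49 genes in 1 seedling library, as the log2 ratio of its RPKM to its mean over the 3 DMSO libraries, coloured and offset by gene group; the line is the median. DMSO 3 lies nearest to the treated libraries, and LHCB4.3 stands alone above 1.

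Markers of other tissues were read in the same seedlings, where 12.4% of all genes tested were higher and 11.7% lower. A list share near these is no result about the markers. Root markers were higher in 6 of 11 cases and their summed level was 2797 to 3101 CPM (counts scaled to library size) on DMSO and 4843 to 5172 on rac-GR24, most of it from the root and hypocotyl glucosidase gene PYK10. Of 12 markers of dividing cells 9 were lower, with sums of 295 to 331 and 213 to 232 CPM. Of 9 epidermal and guard cell markers 3 were lower (876 to 984 and 750 to 822 CPM). Of 11 secondary wall markers 4 were lower (160 to 178 and 138 to 143 CPM), and of 7 meristem and primordium markers tested 3 were lower (63.8 to 66.9 and 47.8 to 55.0 CPM). WUS was at 0 in both groups, and no other marker was. Their part in the result was not tested.

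The brc1-2 mutant was compared with intact WT to ask how loss of BRC1 changes these transcripts in axils. Of 49 genes, 43 were higher in brc1-2, 0 lower, and 6 did not pass: LHCB1.3, LHCB2.1, LHCB4.2, LHCB4.3, PSAD2 (AT1G03130) and PSBR. At an unadjusted p under 0.05, 0 genes were lower, and DESeq2 and limma-voom called 0 lower as well. With upper-quartile scaling, or with the other axillary group left out of the fit, 1 gene was lower, LHCB2.1. Among all 21539 genes tested in axillary tissue 30.4% were higher and 30.5% lower, 60.9% together, against 87.8% of the members higher. The median log2 change was 0.22, beside 0.00 for all genes, and 6 of the rises reached 1.5-fold.

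Copies of the major antenna proteins parted widely. LHCB1.1 had 3721, 3649.5 and 3692 RPKM in intact WT and 5819, 5857 and 5890.3 in brc1-2, a log2 change of 0.67 ± 0.021 (edgeR adjusted p = 1.7e-20). LHCB1.3, 1915 bases away on chromosome 1, had 12109, 11814 and 12069 RPKM in intact WT and 12344, 12377 and 12442 in brc1-2 (0.05 ± 0.024; edgeR adjusted p = 0.094). The groups did not overlap for either gene, and LHCB1.3 did not pass with the settings used here. It was called higher under 5 alternatives: DESeq2 size factors (adjusted p = 0.032 in edgeR), plain library totals (0.017), scaling without the members (0.0051), no filter (0.0062) and a fit of only the 2 groups (9.4e-06), with log2 changes of 0.04 to 0.07.

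In the LHCB2 family LHCB2.3 rose most of all 49 genes. It had 452, 457 and 443 RPKM in intact WT and 764, 784 and 774 in brc1-2 (0.78 ± 0.026; edgeR adjusted p = 4e-20). LHCB2.2 rose by less (0.29 ± 0.020), and LHCB2.1 had 1943, 1997 and 1970.1 RPKM in intact WT and 1933, 1915 and 1937 in brc1-2, a log2 change of -0.03 ± 0.020 that did not pass (edgeR adjusted p = 0.19). LHCB1.4 (0.68 ± 0.031), LHCB1.2 (0.42 ± 0.022) and LHCB3 (0.29 ± 0.018) rose, which gave 6 rises among the 8 tested and a median of 0.36.

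The minor antenna rose in 3 of 5 cases with a median of 0.16. LHCB4.1 had 1648, 1648 and 1594 RPKM in intact WT and 1838, 1888 and 1863 in brc1-2 (0.19 ± 0.027; edgeR adjusted p = 5.3e-07), and LHCB5 (0.16 ± 0.028) and LHCB6 (0.20 ± 0.032) rose as well. All 6 LHCI genes rose (median 0.22), from LHCA4 (0.09 ± 0.029) to LHCA1, which had 2844, 2797 and 2794 RPKM in intact WT and 3649, 3693 and 3719 in brc1-2 (0.39 ± 0.027; edgeR adjusted p = 3.4e-13). The call for LHCA4 ended without intact WT 3 (edgeR adjusted p = 0.094).

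Photosystem I genes rose in 11 of 12 cases (median 0.23), with PSAF (AT1G31330), a docking subunit for plastocyanin, in front. PSAF had 1220.4, 1234 and 1239 RPKM in intact WT and 1579, 1602 and 1607 in brc1-2 (0.37 ± 0.021; edgeR adjusted p = 7.5e-15). PSAK (AT1G30380; 0.34 ± 0.027) and PSAH2 (0.31 ± 0.025) followed, and PSAD2 did not pass (0.04 ± 0.030). Photosystem II genes rose in 9 of 10 cases (median 0.18). PSBP1 (AT1G06680), of the oxygen-evolving complex, had 1627, 1645 and 1639 RPKM in intact WT and 1938, 1949.8 and 1927 in brc1-2 (0.24 ± 0.020; edgeR adjusted p = 1.3e-11). PSBR, also needed for that complex and the most abundant of the group, had overlapping libraries with 2635, 2758 and 2658 RPKM in intact WT and 2686, 2771 and 2693 in brc1-2.

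The RuBisCO group had the highest median of the 7 groups, 0.59, and all 5 of its genes rose. RBCS2B (0.73 ± 0.024), RBCS3B (0.66 ± 0.019) and RBCS1B (0.59 ± 0.025) exceeded RBCS1A (0.31 ± 0.017) and RCA (0.20 ± 0.017). RBCS3B had 1877, 1936 and 1902 RPKM in intact WT and 2991, 3024 and 3013 in brc1-2 (edgeR adjusted p = 8.1e-22). All 3 carrier genes rose, and PETE1 had 165, 164 and 159.6 RPKM in intact WT and 224, 216 and 228 in brc1-2 (0.45 ± 0.036; edgeR adjusted p = 1.1e-11).

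**Figure D4:**
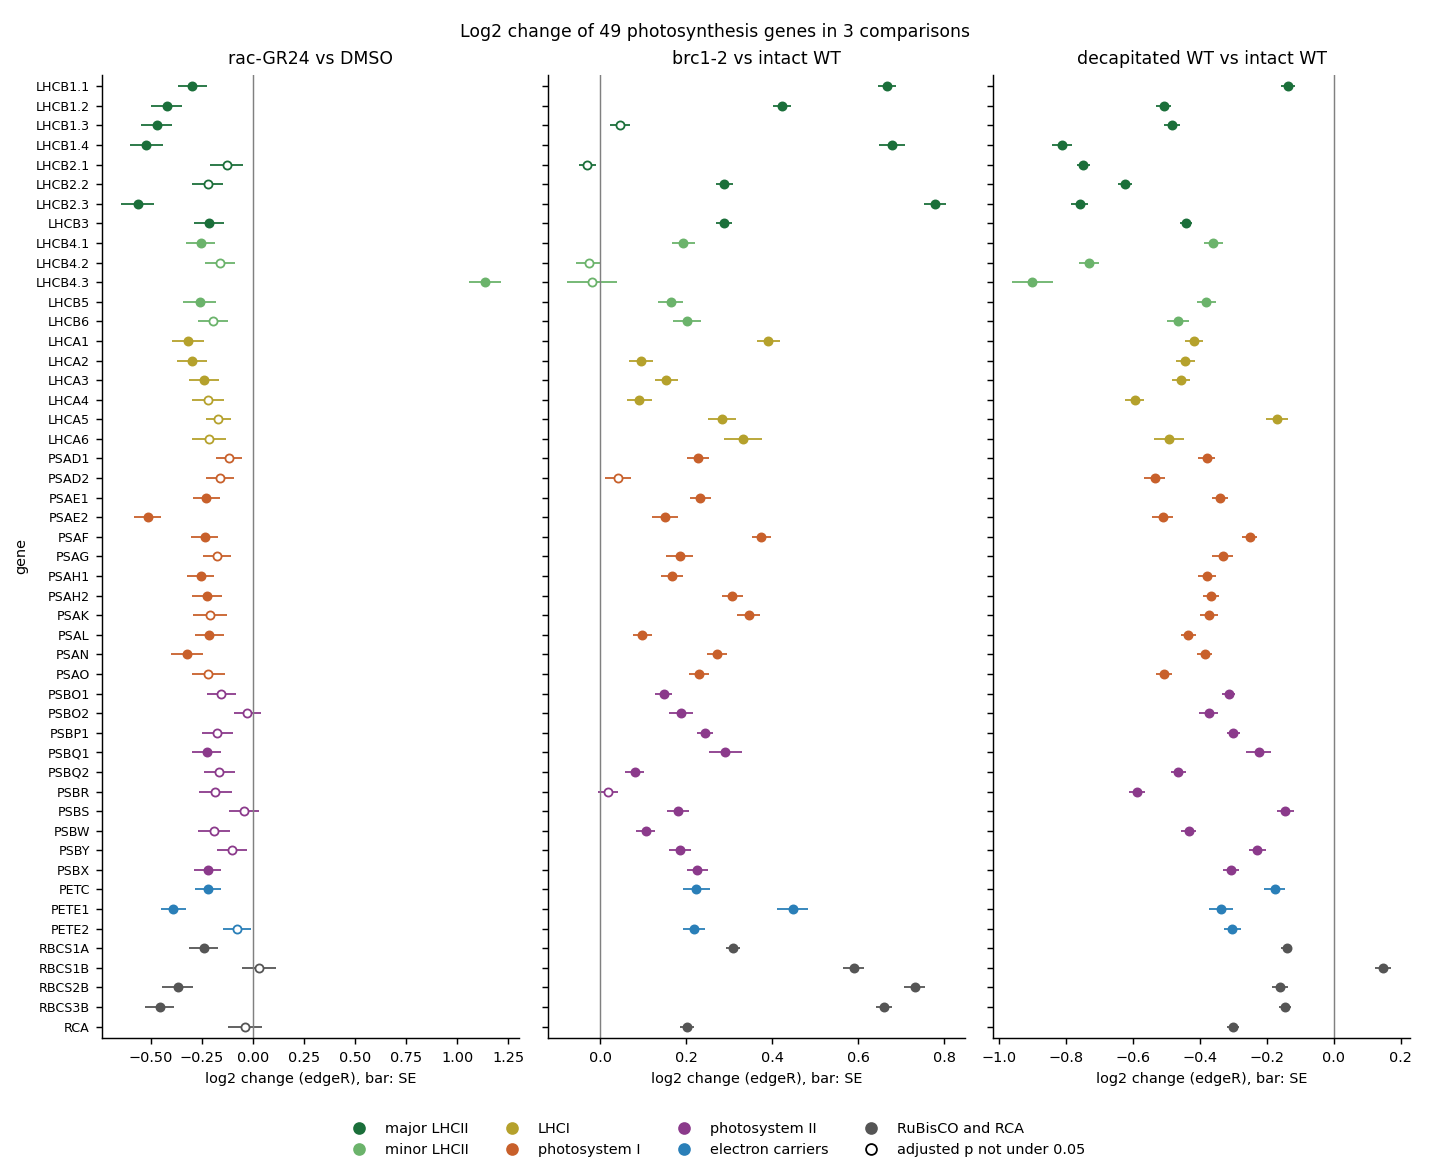
Log2 change (horizontal axis, bar for SE) of 49 genes, 1 per line and coloured by group, in 3 comparisons of 3 libraries against 3; open points did not pass the test, and the horizontal scales differ. LHCB4.3 is the one gene called higher on rac-GR24 and RBCS1B the one called higher after decapitation.

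Decapitation frees axillary buds from the main shoot, and decapitated WT was compared with the same intact WT libraries that served as control for brc1-2. Of 49 genes, 48 were lower after decapitation and 1, RBCS1B, was higher. Of all 21539 genes tested 33.5% were lower and 29.4% higher, 62.9% together, against 98% of the members lower. The median log2 change was -0.38, beside -0.03 for all genes, and 8 of the falls reached 1.5-fold.

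LHCII genes fell most, with a median of -0.57 in the major and -0.47 in the minor antenna. LHCB2.1, which did not pass in brc1-2, had 1943, 1997 and 1970.1 RPKM in intact WT and 1185, 1181 and 1151 in decapitated WT (-0.75 ± 0.020; edgeR adjusted p = 3.8e-22). LHCB4.2, likewise not called in brc1-2, had 1224, 1202 and 1206 RPKM in intact WT and 749.6, 761 and 675 in decapitated WT (-0.73 ± 0.029; edgeR adjusted p = 2.7e-18). The deepest fall of all 49 was that of LHCB4.3, with 13.4, 12.4 and 11.7 RPKM in decapitated WT (-0.90 ± 0.061).

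Members of a family again differed. LHCB1.4 fell to 366, 361 and 327 RPKM from 616, 629 and 608 (-0.81 ± 0.031), while LHCB1.1 fell to 3422, 3445 and 3186 RPKM (-0.14 ± 0.021; edgeR adjusted p = 2.2e-06). LHCB1.3 (-0.48 ± 0.024) and LHCB1.2 (-0.51 ± 0.022) lay between these.

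In LHCI (median -0.45) the fall was deepest for LHCA4, with 3788, 3746 and 3594 RPKM in intact WT and 2528, 2572 and 2263 in decapitated WT (-0.60 ± 0.029; edgeR adjusted p = 2.7e-16), and shallowest for LHCA5 (-0.17 ± 0.033). In photosystem I (median -0.38) PSAO, which takes part in moving LHCII between photosystems, had 1941, 1974 and 1963 RPKM in intact WT and 1390.1, 1417 and 1327 in decapitated WT (-0.51 ± 0.023; edgeR adjusted p = 4.6e-17). In photosystem II (median -0.31) PSBR had 1787, 1822 and 1745 RPKM in decapitated WT (-0.59 ± 0.023; edgeR adjusted p = 1.3e-18), and PSBS fell least (-0.15 ± 0.025). No library of these groups overlapped its control, but the share of all genes without overlap was not computed. This separation is thus no result about the members.

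The RuBisCO group fell least, with a median of -0.15. RCA had 2081, 2062 and 2085 RPKM in intact WT and 1689.7, 1691 and 1673 in decapitated WT (-0.30 ± 0.017; edgeR adjusted p = 5.5e-15). RBCS1A (-0.14 ± 0.017), RBCS2B (-0.16 ± 0.024) and RBCS3B (-0.15 ± 0.018) fell as well. RBCS1B had 393, 402 and 407 RPKM in intact WT and 434, 443 and 454 in decapitated WT, a log2 change of 0.15 ± 0.024 (edgeR adjusted p = 6.9e-06). With the 3 linked RBCS genes summed to 1 feature the log2 change was -0.09, a fall (edgeR adjusted p = 4.2e-05). How reads were split among these copies was not tested. Among the carriers PETE2 had 1432, 1454 and 1425 RPKM in intact WT and 1196, 1202 and 1094 in decapitated WT (-0.30 ± 0.026; edgeR adjusted p = 4e-11).

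Set directly against each other, decapitated WT was below brc1-2 for all 49 genes tested, where 24.1% of all genes were lower and 24.4% higher, 48.5% together. The median log2 change was -0.61, beside 0.00 for all genes, and 25 genes passed 1.5-fold. LHCB2.3 differed most (-1.54 ± 0.026; edgeR adjusted p = 3e-26), with 764, 784 and 774 RPKM in brc1-2 and 272, 271 and 257 in decapitated WT. LHCB1.4 came next (-1.49 ± 0.031). PSBS (-0.33 ± 0.025) and PETC (-0.40 ± 0.032) differed least. In each other group the member with the smallest p also had separate libraries. LHCB4.2 had 1182, 1189.8 and 1193 RPKM in brc1-2 (-0.71 ± 0.029), against the decapitated values above. LHCA1 had 2167, 2185 and 1956 RPKM in decapitated WT (-0.81 ± 0.027). PSAO had 2296, 2312 and 2284 RPKM in brc1-2 (-0.74 ± 0.023). In these 3 genes every decapitated library lay below every brc1-2 library. PSBP1 had 1330.2, 1347 and 1311 RPKM in decapitated WT (-0.54 ± 0.020). PETE1 had 134, 133 and 119.8 RPKM there (-0.79 ± 0.036), and RBCS3B 1721, 1719 and 1721 RPKM (-0.81 ± 0.019). Each was below all 3 brc1-2 libraries, and the share of all genes separated in this way was not computed.

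Cell markers were read in both axillary contrasts with intact WT. Of all genes tested, 30.4% were higher and 30.5% lower in brc1-2, and 29.4% and 33.5% after decapitation. A list share near these is no result about the markers. Of 12 markers of dividing cells 11 were higher in brc1-2 and 12 after decapitation. Their summed level was 314 to 323 CPM in intact WT, 485 to 495 in brc1-2 and 683 to 700 in decapitated WT. Of 11 secondary wall markers 6 were higher and 2 lower in brc1-2 (304 to 311 CPM against 287 to 301), and 11 were lower after decapitation (208 to 216 CPM). Epidermal and guard cell markers were higher in 7 and lower in 2 of 9 cases in brc1-2, and higher in 5 and lower in 1 after decapitation (1062 to 1108 CPM in intact WT, 1158 to 1177 in brc1-2, 1228 to 1279 in decapitated WT). None of these genes was at 0 in a group. Meristem and primordium markers were higher in 3 and lower in 1 of 9 tested in brc1-2, and higher in 3 and lower in 4 after decapitation (197 to 201, 201 to 205 and 209 to 215 CPM). Of 4 root markers tested 2 were lower in brc1-2, and 1 was higher and 1 lower after decapitation (305 to 324, 178 to 182 and 513 to 521 CPM). Among the root markers RHD6 and RSL4 were at 0 in intact WT and brc1-2, EXPA7 in intact WT, and RHD6, EXPA18 and SMB in decapitated WT. The part of these markers in the results was not tested.

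The balance among groups shifted too. Summed RPKM of RuBisCO genes over LHCII genes was 0.32, 0.33 and 0.323 in intact WT, 0.362, 0.365 and 0.359 in brc1-2 and 0.391, 0.392 and 0.42 in decapitated WT. The ratio was above intact WT in each of the other 6 axillary libraries. LHCII over photosystem II was 2.66, 2.61 and 2.66 in intact WT, 2.8, 2.79 and 2.85 in brc1-2 and 2.52, 2.51 and 2.41 in decapitated WT, higher in the mutant and lower after decapitation without overlap. Over 92 ratio comparisons of 3 libraries against 3, an exact two-sided permutation test cannot go below p = 0.1 (adjusted p = 0.12), so no ratio can pass and the values are descriptions.

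Reads of near-identical copies can be assigned to the wrong copy. The sources used here do not give how reads mapping to several places were counted. LHCB1.2, LHCB1.1 and LHCB1.3 lie in a row on TAIR10 chromosome 1, 1153 and 1915 bases apart, with LHCB1.1 on chromosome 1 from 10474656 to 10475969 on the minus strand and LHCB1.3 on chromosome 1 from 10477885 to 10479114 on the plus strand. RBCS3B, RBCS2B and RBCS1B lie in a row 2264 and 1095 bases apart, with RBCS1B on chromosome 5 from 15383167 to 15385320 on the minus strand. LHCB1.1 over LHCB1.3 was 0.307, 0.309 and 0.306 in intact WT, 0.471, 0.473 and 0.473 in brc1-2 and 0.387, 0.387 and 0.398 in decapitated WT. The 3 axillary groups stood apart. Summed to 1 feature, the 3 LHCB1 genes of chromosome 1 had log2 changes of -0.42 on rac-GR24 (edgeR adjusted p = 0.00072), 0.27 in brc1-2 (edgeR adjusted p = 8.3e-12) and -0.41 after decapitation (edgeR adjusted p = 5e-16).

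RBCS1B over RBCS2B was 0.337, 0.333 and 0.32 on DMSO and 0.418, 0.465 and 0.426 on rac-GR24. It was 0.452, 0.438 and 0.459 in intact WT, 0.413, 0.408 and 0.401 in brc1-2 and 0.549, 0.552 and 0.567 in decapitated WT. RBCS1B thus gained on its neighbour on rac-GR24 and after decapitation, and lost ground in brc1-2, each without overlap. The sum of the 3 linked genes over RBCS1A was 0.504, 0.513 and 0.518 in intact WT, 0.662, 0.655 and 0.659 in brc1-2 and 0.518, 0.515 and 0.536 in decapitated WT. It was higher in brc1-2, while decapitated WT overlapped intact WT.

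LHCB2.3 over LHCB2.1 was 0.135, 0.146 and 0.145 on DMSO, 0.0976, 0.106 and 0.111 on rac-GR24, 0.233, 0.229 and 0.225 in intact WT, 0.395, 0.409 and 0.399 in brc1-2 and 0.229, 0.229 and 0.223 in decapitated WT. It was lower on rac-GR24 and higher in brc1-2, and overlapped intact WT after decapitation. The 3 LHCB2 genes summed had log2 changes of -0.19 on rac-GR24 (edgeR adjusted p = 0.089), 0.22 in brc1-2 (edgeR adjusted p = 1.8e-11) and -0.70 after decapitation (edgeR adjusted p = 1.1e-22). PSAD2 over PSAD1 (AT4G02770) was 0.499, 0.496 and 0.522 in intact WT and 0.444, 0.44 and 0.45 in brc1-2, and PSBQ2 (AT4G05180) over PSBQ1 was 0.864, 0.918 and 0.915 in intact WT and 0.799, 0.766 and 0.765 in brc1-2. PSBO2 over PSBO1 (AT5G66570) ranged from 0.293 to 0.369 over all 15 libraries, with 0.293 to 0.301 on DMSO and 0.318 to 0.33 on rac-GR24. PSAH1 over PSAH2 ranged from 0.217 to 0.344. It was 0.332 to 0.34 in intact WT and 0.299 to 0.308 in brc1-2, while decapitated WT overlapped intact WT.

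**Figure D5:**
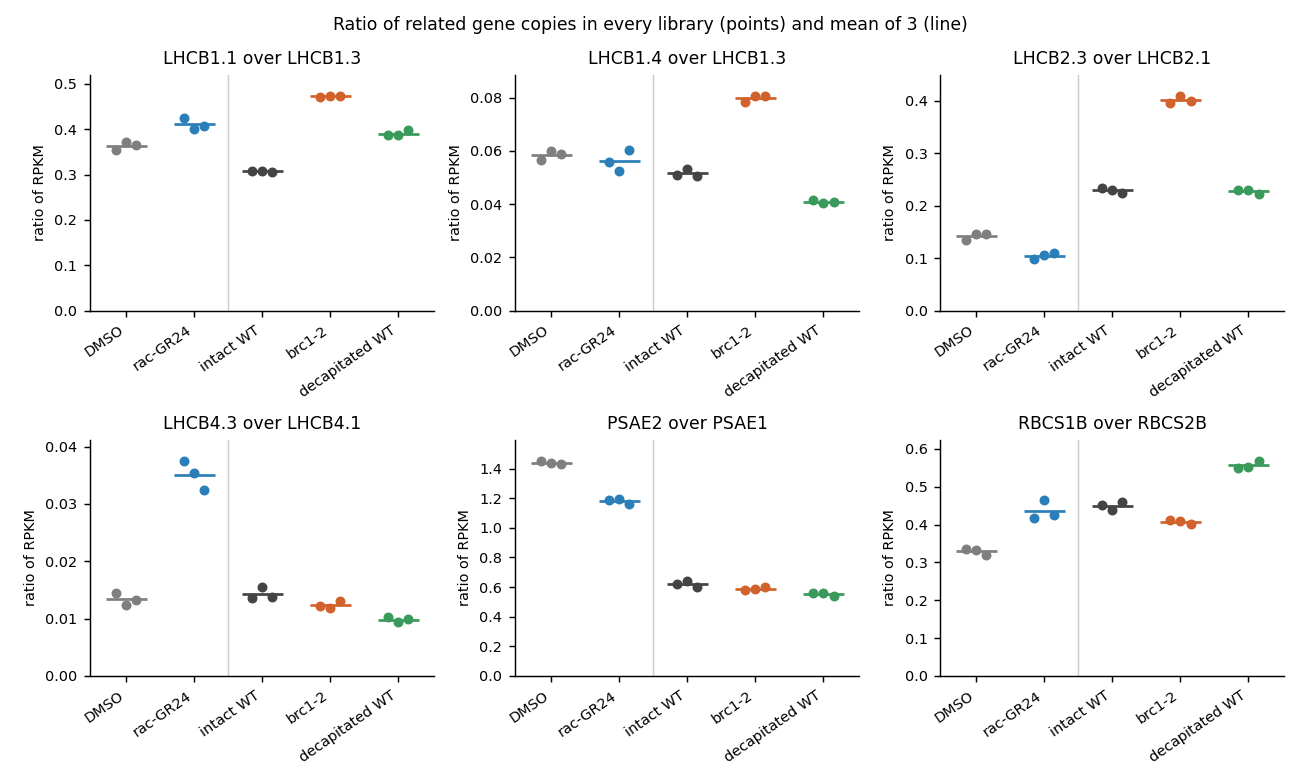
Ratio of the RPKM of related genes (vertical axes, from 0) in every library (points) of the 5 groups, with the mean of 3 as a line; the grey rule parts seedling from axillary tables. LHCB1.1, LHCB1.4 and LHCB2.3 gain on their partners in brc1-2, LHCB4.3 on LHCB4.1 with rac-GR24, and RBCS1B on RBCS2B after decapitation.

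Genes of neighbouring processes were read from lists, whose counts stand beside the shares of all genes called: 12.4% higher and 11.7% lower on rac-GR24, 30.4% and 30.5% in brc1-2, and 29.4% and 33.5% after decapitation. A list share near these is no result about the list. Chlorophyll synthesis genes fell in 11 of 17 cases on rac-GR24 with 0 higher, among them PORB (-0.90), a protochlorophyllide oxidoreductase, and CHLI2 (-0.49), a magnesium chelatase subunit. In brc1-2 16 of 17 rose and 0 fell, including GUN5 (0.66), the large chelatase subunit, GSA2 (0.70), PORC (0.73) and PORA (1.47). After decapitation 9 rose and 7 fell, with GSA2 higher (0.51) and PORA (-1.16) and PORB (-0.40) lower. The chlorophyll list thus had rises after decapitation where 48 of 49 photosystem and RuBisCO genes fell. Chlorophyll breakdown genes fell in 6 and rose in 2 of 8 cases in each axillary contrast, the rises being near the share of all genes. Those that rose were NOL (0.45 in brc1-2 and 0.18 after decapitation) and HCAR (0.37 and 0.24). Among the falls was PPH, a pheophytinase, at -0.53 in brc1-2 and -0.55 after decapitation, and 2 of 8 fell on rac-GR24.

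Calvin cycle genes rose in 10 and fell in 2 of 14 cases in brc1-2, including the transketolase gene TKL1 (0.51) and GAPA2 (0.45). They fell in 11 and rose in 1 after decapitation, with CP12-2, a regulator of the cycle, at -0.92, and fell in 1 on rac-GR24, HCEF1 (-0.21). Other genes of electron transport and ATP synthase fell in 4 of 14 cases on rac-GR24, such as the ferredoxin reductase gene FNR2 (-0.40) and the ferredoxin gene FD2 (-0.37). They rose in 7 and fell in 4 in brc1-2, the falls being near the share of all genes, with FNR2 at 0.47, and fell in 13 after decapitation, with PGRL1A, of cyclic electron flow, at -0.38. Assembly and repair genes rose in 11 of 14 cases in brc1-2, led by CPSRP54 (0.62), which escorts antenna proteins to the membrane. After decapitation 4 rose, near the share of all genes, and 8 fell. ELIP1, a light-stress protein related to the antenna, was higher at 1.14 and PSB27 lower at -0.43. On rac-GR24 1 rose, ELIP1 (0.33), and 3 fell.

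Among 18 nuclear regulators of photosynthesis genes, 9 rose and 5 fell in brc1-2, where the falls were near the share of all genes. The sigma factor gene SIG2 (0.81), for plastid transcription, rose and the light- and stress-responsive sigma factor gene SIG5 fell (-0.95). After decapitation 5 rose, near the share of all genes, and 10 fell. Lower were SIG5 (-1.10), the phytochrome-interacting factor gene PIF4 (-0.94) and GLK1 (-0.48), an activator of antenna and chlorophyll genes. GLK1 was also lower in brc1-2 (-0.30; edgeR adjusted p = 5.8e-09), where 43 of 49 photosynthesis genes were higher. On rac-GR24 PIF4 rose (0.33) and 5 fell, including PIF3 (-0.58) and PIF1 (-0.59), whose proteins restrain greening in the dark. Of 12 plastid genes from the axillary table, named here by identifier, 11 were lower after decapitation. In brc1-2 3 of the 12 were lower, near the share of all genes, and 1 was higher. Their summed level was low and uneven, 66.7 to 127 CPM in intact WT, 39.1 to 95.7 in brc1-2 and 35.3 to 50.5 in decapitated WT. RBCS1A alone had 7893, 8040 and 7818 CPM in intact WT. ATCG00020 had a log2 change of -2.17 in brc1-2 and -2.10 after decapitation. How evenly the libraries captured plastid transcripts was not tested, so these falls are no measure of plastid expression.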

How the data were processed

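RNA-seq of 6 seedling and 9 axillary libraries was used; the 8 CUT&Tag samples of the series were not analysed here. The deposited values are raw counts per gene with an exon length in bases, in 1 table for each tissue, and per the file headers they have the layout of featureCounts output. Tools named in the submitters' processing notes are fastp 0.23.1, cutadapt 3.5, HISAT2 2.0.5, SAMtools 1.13, featureCounts 2.0.1 and the TAIR10 genome; no strand setting or rule for reads with several matches is given in those notes. An incomplete last line of the seedling table was left out. Of the axillary genes, 609 were not analysed in seedlings, 12 plastid genes among them.

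Each table was fitted on its own with edgeR 4.0.16 in R 4.3.3 (filterByExpr with a minimum count of 10 and a minimum total of 15, TMM scaling, quasi-likelihood test, Benjamini-Hochberg adjustment over all genes tested, threshold 0.05), over 21063 and 21539 genes, with group as the only term. Standard errors were taken as the log2 change divided by the square root of F. The 3 axillary groups shared 1 fit. RPKM divides counts by the exon length and by the TMM-scaled total. Ratios of copies were compared by exact two-sided permutation tests. The fit was tested on simulated counts with known changes of 1.5-fold or more. Of the 1.5-fold changes it recovered 68.7% for rac-GR24, 80.6% for brc1-2 and 76.1% for decapitation. It made 11, 11 and 13 false calls. Smaller changes, such as all falls of members on rac-GR24, were not simulated.

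The members and lists were chosen with earlier results of these data known, so no count over them is independent support. Full library values are given for the most abundant member of each complex, the member with the smallest p in each complex and comparison, and members called against the majority. Groups of copies are given by the ratios of their levels, with some further members named. Of each list, mainly members among the 4 with the smallest p are named, and the chlorophyll breakdown genes NOL and HCAR also where they ranked lower. Alternatives were other scalings, filters, thresholds and tests (DESeq2 1.42.0, limma 3.58.1), summed copies, a replicate block, and each library left out in turn. Between 60.8% and 71.8% of low counts (1 to 20) were even numbers, so halved counts were tried as an alternative chosen after seeing the data.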

Additional observations from a re-analysis of the deposited data

How the results depend on the processing

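The calls on rac-GR24 depended most on the settings. Against 25 genes lower, 12 were lower at an adjusted p of 0.01, 0 with a 1.5-fold minimum, 33 with DESeq2, and 9 to 41 with each library left out in turn (9 without rac-GR24 replicate 1, 41 without DMSO replicate 3). The cause was not tested. Leaving out 1 library turned the sign of 4 genes that had not passed: PSBO2 ran from -0.0691 to 0.0075, PSBS from -0.1001 to 0.0164, RCA from -0.116 to 0.0307 and RBCS1B from -0.0592 to 0.1153 on the log2 scale. In brc1-2, 6 genes were higher with a 1.5-fold minimum, and 1 was lower with upper-quartile scaling or with only the 2 groups fitted. The median was 0.2092 with upper-quartile scaling and 0.2512 with scaling factors computed without the members, where LHCB4.2 (0.0006) and LHCB4.3 (0.0075) turned sign without passing. LHCB4.3 ran from -0.0628 to 0.053 with 1 library left out (0.0028 without brc1-2 replicate 2a). After decapitation, with a 1.5-fold minimum 0 genes were higher and 8 lower, and with copies summed 0 of 36 features were higher. For decapitated WT against brc1-2, 25 genes were lower with a 1.5-fold minimum, and the median ran from -0.6164 to -0.5669 with 1 library left out. Scaled as a share of genes common to both tables, the major LHCII sum in intact WT was 27357.3 and the RuBisCO sum in decapitated WT 10444.7 RPKM. The causes of these shifts were not tested. With halved counts 24 genes were lower on rac-GR24, since LHCB3 no longer passed (edgeR adjusted p = 0.054), and the counts of calls in the axillary comparisons were as before.

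With the replicate block 12 genes were lower on rac-GR24 and 13 of the 26 calls held; all 49 calls after decapitation held. In their deviations from group means, same-numbered libraries correlated by 0.12, -0.025 and -0.089 in seedlings. Between intact and decapitated WT the values were 0.019, 0.018 and 0.041. With 3 libraries in a group, such values cannot settle whether the numbers pair the libraries. No paired analysis was possible for brc1-2 because 2 of its columns carry the same number.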

Other observations

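Levels in axils and seedlings came from separately scaled tables, so they are set side by side with no test. Mean RPKM in intact WT axils was over 1.5 times that on DMSO for 6 of 12 photosystem I genes, led by PSAG (3.26 times), PSAE1 (2.68 times) and PSAD2 (2.51 times), and for the plastocyanin gene PETE1 (1.62 times). It was under 0.67 times for 8 of 49 genes, among them PSBR (0.526 times), RBCS3B (0.552 times), RBCS2B (0.558 times) and PSBO1 (0.565 times). In that measure photosystem I stood at a median of 1.44 times and the RuBisCO group at 0.614 times. The shares of all genes past these cutoffs were not computed, so the counts are no result about these genes. PSAE2 over PSAE1 was 1.43 to 1.45 on DMSO and 0.602 to 0.643 in intact WT axils. Shared exon bases, 34.1% in PSAE1 and 10.4% in PSAE2, affect this ratio. Per kilobase of unshared exon the means were 590 for PSAE2 and 558 for PSAE1 on DMSO, and 684 and 1494 in intact WT. The ratio thus differed between the tables, while which copy was more abundant on DMSO is not settled.

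Across the 49 genes, the log2 changes on rac-GR24 and in brc1-2, which come from different libraries, had a Spearman rho of -0.44 (Pearson r -0.42), and -0.40 (Pearson r -0.46) without LHCB4.3. The changes on rac-GR24 and after decapitation had a rho of 0.11 (r -0.13), and 0.18 (r 0.35) without LHCB4.3. Against the difference of decapitated WT from brc1-2, rho was 0.44 (r 0.24), and 0.51 (r 0.67) without LHCB4.3. These 3 relations share the rac-GR24 comparison, and the axillary contrasts share libraries with each other. The 49 points are a description: within a comparison they share its 6 libraries and include near-identical copies.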
